A study of Mus musculus with 12 samples.

Results

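The genes described here are 10 feedback inhibitors of the extracellular signal-regulated kinase (ERK) pathway: the dual-specificity phosphatase genes Dusp1, Dusp4, Dusp5, Dusp6 and Dusp14, the Sprouty genes Spry1, Spry2 and Spry4, and the Sprouty-related genes Spred1 and Spred2. They were chosen by gene symbol from the 24100 genes of the count table, which held all 10. All 10 also passed the filter on low counts in each of the 5 comparisons made.

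Growth factors and neurotrophins activate receptor tyrosine kinases, which act through RAS, RAF and MEK to phosphorylate ERK. Active ERK induces genes whose products close the loop: dual-specificity phosphatases remove the activating phosphates from ERK and related kinases, and Sprouty and SPRED proteins act further up, between the receptor and RAF. In neurons ERK signalling is best known for its part in the transcription that follows synaptic activity and brain-derived neurotrophic factor (BDNF), so the transcripts of these inhibitors are often used as a readout of the pathway.

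RNA was sequenced from primary cultures of mouse entorhinal cortex (EC) neurons, prepared from C57BL/6J embryos at embryonic day 17 and transduced at 7 days in vitro with an adeno-associated virus (AAV1) at 1e+10 genomes per ml. RNA was collected 4 days later, and 200 ng per well went into each library. The 4 groups of 3 wells received a small hairpin RNA against Dek under the U6 promoter with mCherry (Dek-silenced), a scrambled hairpin in the same kind of vector (scrambled control), a mouse Dek cDNA with mCherry under the neuronal hSyn1 promoter (Dek-overexpressing), or mCherry alone under hSyn1 (empty vector control). Silencing rests on 1 hairpin sequence, and the labels do not say whether wells came from separate dissections or whether the hairpin and cDNA arms shared a culture, so the p-values measure the spread between these wells only.

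Library totals lay between 15679567 and 18933382 estimated counts. Dek, which encodes a chromatin-binding protein and is the targeted gene, was at 7.98, 6.65 and 8.62 CPM (counts scaled to library size with TMM normalization) in Dek-silenced wells, against 35.2, 36.6 and 36.4 CPM in scrambled wells. It was at 156, 129 and 143 CPM in Dek-overexpressing wells, against 36.0, 38.8 and 41.1 CPM in empty vector wells, so each virus moved its target as its label says. Pan-neuronal markers (8 genes) summed to between 5871 and 6617 CPM across all 12 libraries, and 9 astrocyte markers to between 435 and 854 CPM, so glial transcripts were present besides neuronal ones. These are bulk cultures, in which fewer cells of a type and less RNA per cell cannot be told apart.

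Per kilobase of exon, which allows levels of different genes to be compared, Spry2 and Dusp4 were the highest of the 10 in the scrambled control, at 35.8 ± 5.32 and 27.5 ± 5.20 CPM per kb (mean ± SD, n = 3), and their wells overlapped. Dusp6 (15.7 ± 0.948), Dusp1 (13.2 ± 3.56) and Dusp14 (11.8 ± 0.327) followed, each overlapping its neighbour in this order. Spred1 (8.26 ± 0.617) and Spred2 (7.76 ± 0.763) overlapped each other, as did Spry1 (5.64 ± 0.289) and Spry4 (5.24 ± 0.920). Dusp5 was lowest, at 0.802 ± 0.100 CPM per kb, which came from 26 to 50 counts per library over the whole series and makes its values the least precise of the set. In Dek-silenced wells Dusp14 stood at rank 3, at 23.9 ± 0.679 CPM per kb, where it overlapped Dusp4 at 26.7 ± 3.52 CPM per kb. In the empty vector control Dusp14 stood at rank 6, at 9.59 ± 0.379 CPM per kb.

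**Figure D1:**
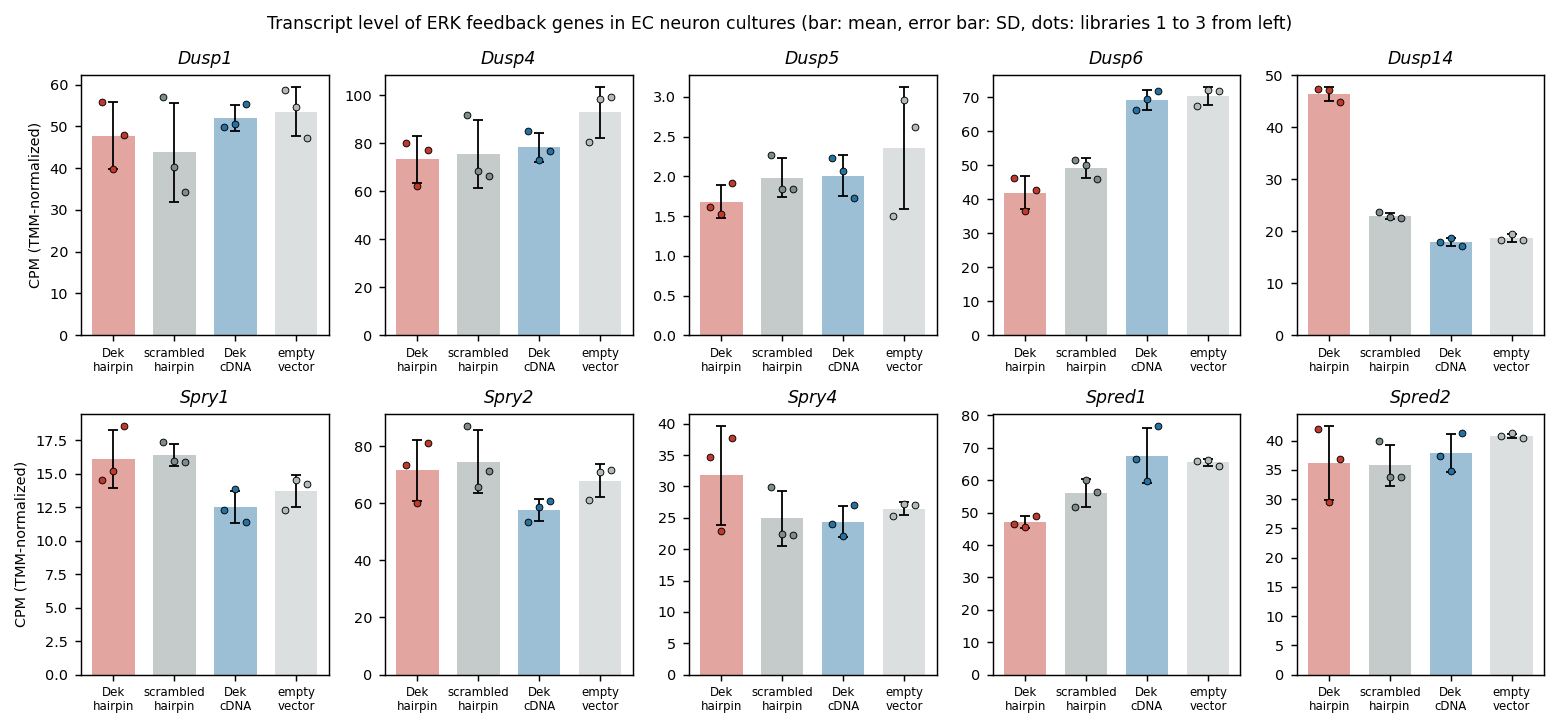
Transcript level (CPM, TMM-normalized) of the 10 feedback genes in Dek-silenced, scrambled, Dek-overexpressing and empty vector cultures, where bars give the mean, whiskers the SD and points the single libraries. The Dusp14 bar stands at 46.4 CPM with the Dek hairpin and between 17.9 and 23.0 CPM in the other groups, while Dusp6 and Spred1 step down across the cDNA and hairpin arms.

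In Dek-silenced wells 1 of the 10 genes, Dusp14, was higher and 2, Dusp6 and Spred1, were lower than in the scrambled control (edgeR quasi-likelihood F test, adjusted p below 0.05 over 14232 genes tested, n = 3 per group). Changes were common in this comparison: 26.2% of all genes tested were higher and 28.5% lower, so neither count of members stood above the background. The median log2 fold change (log2FC) of the 10 genes was −0.05, beside −0.0011 for all genes tested, and 3 of the 10 lay above zero.

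Dusp14 (Entrez 56405, chromosome 11, 84048041 to 84069261, minus strand, GRCm38) encodes an atypical dual-specificity phosphatase that lacks the kinase-docking domain of the classical family members. It was at 47.3, 47.1 and 44.9 CPM in Dek-silenced wells, against 23.7, 22.8 and 22.4 CPM in scrambled wells. Every silenced well lay far above every scrambled well, and the wells of each group differed by little. The log2FC was 1.00 (SE 0.07, 95% interval 0.85 to 1.15, edgeR adjusted p = 2.9e-07, n = 3 per group), and it stayed between 0.98 and 1.10 under every alternative tried. The groups of 61.9% of all genes tested did not overlap in this comparison. Beside this rise, 4 of 5 oligodendrocyte markers were higher and 1 lower, with sums of 83.0 to 90.1 CPM in silenced wells and 30.9 to 41.6 CPM in scrambled wells, and 3 of 5 precursor markers were higher (sums of 92.5 to 199 CPM against 62.3 to 110 CPM). Of the 9 astrocyte markers 0 passed edgeR at an adjusted or an unadjusted p below 0.05 (sums of 499 to 854 CPM in silenced and 530 to 812 CPM in scrambled wells). The part of these cells in the level of Dusp14 was not tested.

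Dusp6 (Entrez 67603, chromosome 10, 99263231 to 99267489, plus strand, GRCm38) encodes a cytoplasmic phosphatase that is highly selective for ERK and is a standard readout of ERK output. It was at 46.3, 36.7 and 42.8 CPM in Dek-silenced wells, against 51.6, 50.04 and 45.9 CPM in scrambled wells. The highest silenced well lay just above the lowest scrambled well, so the groups overlapped. The log2FC was −0.25 (SE 0.09, 95% interval −0.44 to −0.05, edgeR adjusted p = 0.032, n = 3 per group). The call was lost with scaling by library size alone (−0.15, adjusted p = 0.17), with DESeq2 (adjusted p = 0.051), with a minimum of 5 CPM (0.052), and without silencing replicate 2 (0.14), silencing replicate 3 (0.054), scrambled replicate 1 (0.091) or scrambled replicate 2 (0.096).

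Spred1 (Entrez 114715, chromosome 2, 117121374 to 117182279, plus strand, GRCm38) encodes a SPRED protein that brings neurofibromin, a RAS inhibitor, to the membrane. It was at 46.6, 45.7 and 49.0 CPM in Dek-silenced wells, against 51.7, 60.0 and 56.4 CPM in scrambled wells, with every silenced well below every scrambled one. The log2FC was −0.27 (SE 0.07, 95% interval −0.42 to −0.11, edgeR adjusted p = 0.0085, n = 3 per group). The call was lost under library size alone (−0.17, adjusted p = 0.068) or without scrambled replicate 2 (−0.21, adjusted p = 0.055). Scaling by library size raised the median of all genes to 0.10 and turned the calls over all genes to 4793 higher and 3210 lower, beside 3730 higher and 4060 lower with TMM. Of the 8 pan-neuronal markers 1 was higher, Rbfox3 (log2FC 0.34), and 4 were lower, Nefl (−2.27), Nefm (−2.41), Tubb3 (−0.32) and Map2 (−0.14). Snap25 (−0.02), Syt1 (−0.02) and Syp (0.06) did not pass. The sums were 5871 to 6316 CPM in silenced wells and 6510 to 6617 CPM in scrambled wells. The part of these markers in the falls of Dusp6 and Spred1 was not tested.

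The other 7 genes did not pass in silencing. Spry4 (Entrez 24066, chromosome 18, 38586247 to 38601415, minus strand, GRCm38) encodes a Sprouty that blocks RAS activation downstream of receptor tyrosine kinases, and it was at 34.6, 22.9 and 37.8 CPM in Dek-silenced wells and 30.0, 22.5 and 22.3 CPM in scrambled wells. Silenced wells 1 and 3 lay above all scrambled wells and silenced well 2 lay among them. Its log2FC was 0.33 (SE 0.21, edgeR adjusted p = 0.21, n = 3 per group). With the replicate number as a block, which pairs wells of the same number, it was 0.32 (SE 0.12) and passed (adjusted p = 0.043), which gave 2 higher genes in place of 1. The labels do not give this pairing. Relative to the means of the silenced and scrambled groups (log2 CPM), Spry4 lay on the same side in wells 1 (0.15 and 0.28) and 2 (−0.43 and −0.13). In well 3 it lay on opposite sides (0.28 and −0.14). Spry4 also passed without silencing replicate 2 (0.52, adjusted p = 0.0094). That well was the lowest of its group for Spry4, so leaving it out raises the silenced mean by construction.

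Dusp1 (Entrez 19252, chromosome 17, 26505590 to 26562128, minus strand, GRCm38), an early response phosphatase of the nucleus that acts on p38 and JNK as well as ERK, was at 55.8, 39.8 and 47.8 CPM in Dek-silenced wells, against 56.9, 40.3 and 34.2 CPM in scrambled wells. Both groups covered nearly the same range, and the interval of its log2FC, 0.11 (SE 0.22), ran from −0.43 to 0.65. Dusp4 (Entrez 319520, chromosome 8, 34807297 to 34819894, plus strand, GRCm38), which encodes another nuclear phosphatase induced by ERK, was at 80.2, 62.2 and 77.2 CPM in Dek-silenced wells, against 91.8, 68.3 and 66.1 CPM in scrambled wells. The groups overlapped again, with a log2FC of −0.06 (95% interval −0.41 to 0.29). Spry2 (Entrez 24064, chromosome 14, 105891947 to 105896819, minus strand, GRCm38), the best studied Sprouty in receptor signalling, was at 73.4, 60.1 and 81.3 CPM in Dek-silenced wells, against 87.0, 65.6 and 71.2 CPM in scrambled wells. Its log2FC was −0.07 (95% interval −0.39 to 0.24), and that of Spry1 (Entrez 24063, chromosome 3, 37639947 to 37644598, plus strand, GRCm38), known from the mouse kidney as an inhibitor of RET signalling, was −0.04 (−0.28 to 0.21). Spred2 (Entrez 114716, chromosome 11, 19924375 to 20024026, plus strand, GRCm38), the close relative of Spred1, was at −0.0045 (−0.28 to 0.27), an interval that holds the log2FC of Spred1. Dusp5 (Entrez 240672, chromosome 19, 53529109 to 53542431, plus strand, GRCm38), a nuclear phosphatase selective for ERK, was at −0.25 (−0.77 to 0.27) on 26 to 40 counts per library, so a change of the size seen for Dusp6 was not detectable at this depth.

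The promoters of the genes that passed in silencing are shown, with that of Dusp1 as an example of one that did not. They were searched for motifs through which cAMP and ERK are known to reach transcription. The 250 bases before the start are printed 5′ to 3′ as RefSeq gives them on GRCm38.p6, with matches to the cAMP response element (CRE, TGACGTCA), its half-site (TGACG, which every CRE holds), AP-1 (TGANTCA), ETS (CCGGAA), EGR (GCGNGGGCG) and the serum response element, on either strand, in capitals.
Dusp14 promoter, chr11:84068358-84068607, minus strand: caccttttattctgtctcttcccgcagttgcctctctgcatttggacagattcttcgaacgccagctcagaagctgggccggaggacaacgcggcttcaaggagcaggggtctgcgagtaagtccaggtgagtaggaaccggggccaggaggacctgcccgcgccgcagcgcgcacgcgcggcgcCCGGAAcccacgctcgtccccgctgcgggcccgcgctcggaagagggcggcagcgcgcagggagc
Dusp6 promoter, chr10:99262981-99263230, plus strand: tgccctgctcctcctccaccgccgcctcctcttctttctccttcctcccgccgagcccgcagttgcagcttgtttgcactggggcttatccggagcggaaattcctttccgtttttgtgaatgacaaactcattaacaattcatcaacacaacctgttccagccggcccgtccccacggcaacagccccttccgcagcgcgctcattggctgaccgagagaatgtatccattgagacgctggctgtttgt
Spred1 promoter, chr2:117120821-117121070, plus strand: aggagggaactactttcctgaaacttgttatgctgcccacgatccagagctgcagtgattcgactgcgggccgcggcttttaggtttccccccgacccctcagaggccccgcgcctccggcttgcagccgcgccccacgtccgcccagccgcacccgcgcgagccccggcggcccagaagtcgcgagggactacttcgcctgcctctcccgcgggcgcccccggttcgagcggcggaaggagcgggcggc
Dusp1 promoter, chr17:26508473-26508722, minus strand: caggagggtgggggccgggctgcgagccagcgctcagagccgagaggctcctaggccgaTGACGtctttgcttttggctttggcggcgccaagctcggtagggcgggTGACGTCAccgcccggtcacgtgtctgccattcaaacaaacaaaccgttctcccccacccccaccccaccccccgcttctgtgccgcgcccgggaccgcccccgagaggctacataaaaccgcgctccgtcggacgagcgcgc
The Dusp14 sequence held 1 ETS match and the Dusp1 sequence a full CRE and 1 half-site apart from it, while the Dusp6 and Spred1 sequences held none of the marked motifs. The promoter of Spry1, which did not pass in silencing, held none of the marked motifs either. The sequences shown are therefore no contrast between genes that passed and genes that did not. Over the windows of 300 bases (250 before and 50 after the start) of the 8 genes matched, the CRE was present in 1 and in 1.79% of 32851 promoters, the half-site in 3 (20.8% of promoters), ETS in 2 (14.9%), the serum response element in 1, Dusp5 (1.63%), and AP-1 (7.81%) and EGR (5.55%) in 0. The GC box (GGGCGG, which can overlap an EGR match), not marked in the sequences, was in 6 of the 8 (35.7% of promoters). A match is only a run of letters, and the accessibility or binding of these promoters was not analysed here. Dusp4 and Spry4 were not matched. The RefSeq starts used here need not be the outer ends of the gene spans given above. For Dusp14 and Dusp1 the windows lie inside those spans, and other annotated starts were not searched.

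The Dek hairpin itself can pair with short runs in other transcripts, and 3 heptamers were therefore looked up in the longest annotated 3′ UTR of each gene (GENCODE vM21, GRCm38). AAGAGGA, which pairs with bases 5 to 11 of the guide arm, was in 14.6% of 21028 genes and in 2 of the 10, Dusp4 and Spred2. AGGATCT, which pairs with bases 2 to 8, was in 9.42% of genes and in 1 of the 10, Dusp4. AGCACCA, which pairs with bases 2 to 8 of the scrambled guide, was in 9.92% of genes and in 0 of the 10. The sites are shown with the heptamer in capitals. They fall in genes that did not pass against the scrambled control.
Dusp4, AAGAGGA site: agggaaaggaAAGAGGAgaaaaaatga
Spred2, AAGAGGA site: ctaggccaatAAGAGGAggccaggctc
Dusp4, AGGATCT site: cacttggcctAGGATCTggctattggt
The genes that did pass against the scrambled control, Dusp14, Dusp6 and Spred1, held none of the 3 heptamers in a 3′ UTR of 576, 1190 and 4330 bases. Against the empty vector control, described below, Dusp4 was lower (log2FC −0.34, edgeR adjusted p = 0.016). No counterpart of the run at bases 5 to 11 was looked up for the scrambled guide. Pairing of the hairpin with these transcripts was not tested.

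The silenced wells were next set against the empty vector control, a comparison that shares the silenced libraries with the one above and in which virus type, and possibly culture, differ as well. Dusp14 was higher and Dusp4, Dusp6 and Spred1 were lower (edgeR, 14292 genes tested), beside 34.0% of all genes higher and 33.5% lower. Dusp14 was at 47.3, 47.1 and 44.9 CPM in Dek-silenced wells, against 18.2, 19.5 and 18.2 CPM in empty vector wells, a log2FC of 1.32 (SE 0.07, adjusted p = 9.0e-09, n = 3 per group). Dusp6 was at 46.3, 36.7 and 42.8 CPM in Dek-silenced wells, against 67.4, 72.1 and 71.8 CPM in empty vector wells, a log2FC of −0.75 (SE 0.08, adjusted p = 3.4e-06, n = 3 per group). The groups did not overlap for either gene, as for 71.0% of all genes tested in this comparison, and both calls held under every alternative tried. Spred1 (−0.47, SE 0.06, adjusted p = 1.7e-05) and Dusp4 (−0.34, SE 0.11, adjusted p = 0.016) were also below the empty vector wells without overlap, Dusp4 not passing without empty vector replicate 2 (adjusted p = 0.055). For Dusp4 the margin was narrow, with the highest silenced well at 80.2 CPM and the lowest empty vector well at 80.5 CPM. Spry1 was not called, yet its lowest silenced well (14.54 CPM) lay above its highest empty vector well (14.52 CPM). Without silencing replicate 1 the count lower was 5, with Dusp1 (−0.30, adjusted p = 0.015) and Spred2 (−0.31, adjusted p = 0.0066) added, and 2 were higher, with Spry1 (0.29, adjusted p = 0.041) added. In that fit 4999 of the 14507 genes tested were lower and 4854 higher. Without silencing replicate 2, Spry4 was higher (0.44, adjusted p = 0.00087), and without empty vector replicate 1 Dusp5 was lower (−0.74, adjusted p = 0.020). For every gene that these fits added, the well left out was the highest or lowest of its group, so the group mean moved by construction. The added calls show only how far the counts depend on these wells.

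**Figure D2:**
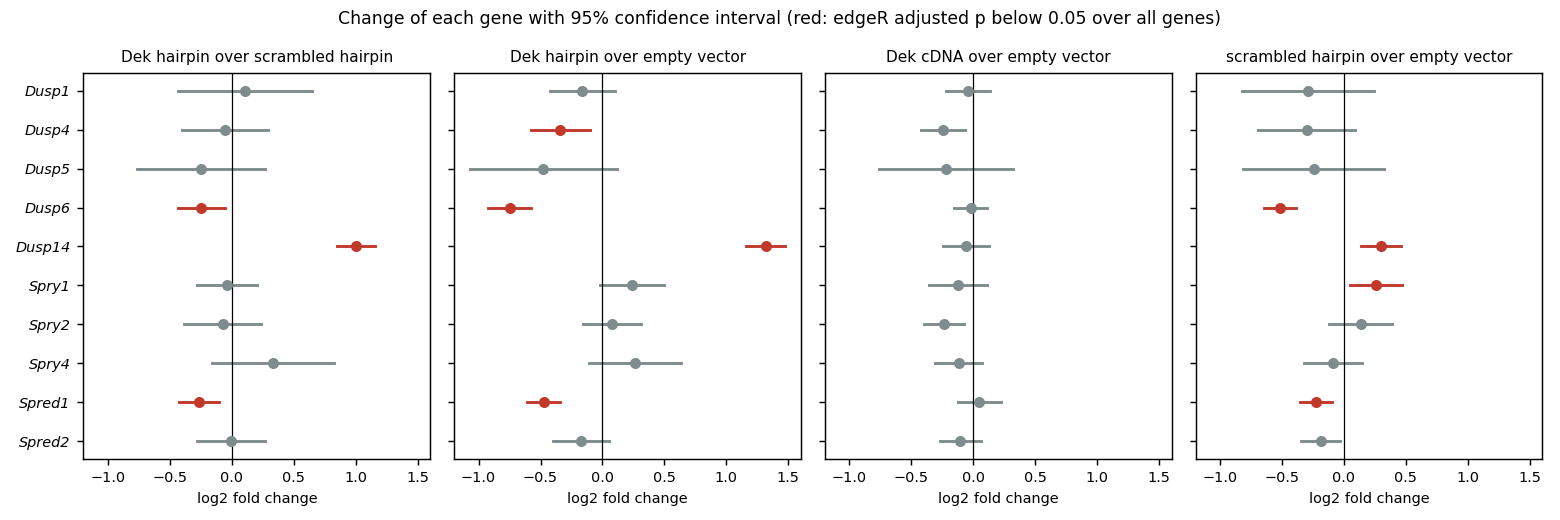
Change of each of the 10 genes as log2 fold change with its 95% confidence interval, in red where the edgeR adjusted p was below 0.05 over all genes and in grey elsewhere, for 4 comparisons that share libraries. Dusp14 stands apart at 1.00 against the scrambled control and 1.32 against the empty vector, and in the cDNA comparison 0 of the 10 genes are red.

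The controls differed from each other too. In the scrambled control 2 of the 10 genes were higher and 2 lower than in the empty vector control (edgeR, 14096 genes tested), beside 21.3% of all genes higher and 21.8% lower. Dusp6 was at 51.6, 50.04 and 45.9 CPM in scrambled wells, against 67.4, 72.1 and 71.8 CPM in empty vector wells, a log2FC of −0.52 (SE 0.06, adjusted p = 1.7e-05, n = 3 per group). All scrambled wells lay below all empty vector wells, in a comparison in which the groups of 53.4% of all genes tested did not overlap. For Dusp6 this difference between controls was larger than the one between Dek-silenced and scrambled wells (−0.25), although the difference between the sizes was not tested. Dusp14 (0.30, SE 0.08, adjusted p = 0.0058) was higher and Spred1 (−0.23, SE 0.06, adjusted p = 0.0083) lower, each without overlap and under every alternative tried. The oligodendrocyte marker sum was 30.9 to 41.6 CPM in scrambled wells and 44.7 to 45.6 CPM in empty vector wells, with Mbp at a log2FC of −1.40 and Cnp at 0.24. The precursor sum was 62.3 to 110 CPM in scrambled wells and 52.1 to 82.5 CPM in empty vector wells. Of the 5 precursor markers 2 lay above zero and 3 below (Pdgfra −1.11, Cspg4 −0.87, Sox10 −1.08), with a median log2FC of −0.87. Olig2 alone passed as higher (0.70, SE 0.19, edgeR adjusted p = 0.020) and 0 passed as lower. The astrocyte sum was 530 to 812 CPM in scrambled wells and 435 to 563 CPM in empty vector wells, with 2 of 9 markers higher. The part of these cells in the difference between controls was not tested.

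Spry1 was at 17.4, 15.97 and 15.9 CPM in scrambled wells, against 12.3, 14.5 and 14.2 CPM in empty vector wells, higher in every well. Its log2FC of 0.26 (SE 0.10, edgeR adjusted p = 0.043, n = 3 per group) passed no longer when any 1 of the 6 libraries was left out (adjusted p from 0.059 to 0.15). Spred2 lay just outside the threshold (−0.19, SE 0.07, adjusted p = 0.0502), and it passed with DESeq2 size factors, library size alone, no filter on low counts or a minimum of 5 CPM (adjusted p from 0.037 to 0.048). Scrambled replicate 1 was the highest of its group for 9 of the 10 genes, all but Spred1, and without it 6 genes were lower: Dusp1 (−0.53, adjusted p = 0.00059), Dusp4 (−0.47, adjusted p = 0.00046), Spry4 (−0.24, adjusted p = 0.019) and Spred2 (−0.27, adjusted p = 0.0025) joined Dusp6 and Spred1. In that fit 3306 of the 14262 genes tested were lower and 3191 higher. Leaving out the well in which these genes were highest lowers their scrambled mean by construction. The added calls therefore show only how far the count depends on this well. The kind of virus and a difference between cultures cannot be told apart in this comparison. Markers of excitatory neurons summed to 232 to 271 CPM in scrambled wells and 355 to 383 CPM in empty vector wells. Of these 4 markers 2 were lower and 0 higher, and 1 lay above zero. Markers of inhibitory neurons summed to 2416 to 2623 CPM in scrambled wells and 2144 to 2217 CPM in empty vector wells, with 3 of 5 higher and 1 lower. The part of these cells in the levels of the members was not tested.

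In Dek-overexpressing wells none of the 10 genes passed the test by edgeR (0 higher, 0 lower, 14089 genes tested) or by DESeq2. Over all genes 0.00710% were higher, which is Dek alone, and 0.00% lower, so the absence of calls among the members matched the background. At an unadjusted p below 0.05, 0 of the 10 were higher and 2 lower, beside 2.92% of all genes higher and 3.68% lower. The median log2FC was −0.11, beside 0.0018 for all genes tested, and 9 of the 10 lay below zero. In the same wells all 5 inhibitory neuron markers lay below zero (0 by adjusted and 3 by unadjusted p, median log2FC −0.18), with sums of 1926 to 1946 CPM in Dek-overexpressing wells and 2144 to 2217 CPM in empty vector wells, and all 9 astrocyte markers lay above zero (0 by adjusted or unadjusted p). Their part in the levels of the members was not tested.

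The lower pair at the unadjusted level was Spry2 and Dusp4. Spry2 was at 53.4, 58.6 and 60.9 CPM in Dek-overexpressing wells, against 61.3, 70.8 and 71.8 CPM in empty vector wells, with every overexpressing well below every control well by a narrow margin. The groups of 11.7% of all genes tested did not overlap in this comparison. Its log2FC was −0.23 (SE 0.08, 95% interval −0.40 to −0.07, edgeR adjusted p = 0.69, n = 3 per group). Dusp4 was at 85.0, 73.2 and 76.6 CPM in Dek-overexpressing wells, against 80.5, 98.6 and 99.3 CPM in empty vector wells, and the groups overlapped. Its log2FC was −0.24 (SE 0.08, 95% interval −0.42 to −0.06, edgeR adjusted p = 0.69, n = 3 per group).

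The genes that passed in silencing lay close to their control in overexpression. Dusp14 was at 17.8, 18.7 and 17.1 CPM in Dek-overexpressing wells, against 18.2, 19.5 and 18.2 CPM in empty vector wells, a log2FC of −0.06 (95% interval −0.24 to 0.13). Dusp6 was at 66.2, 69.6 and 72.0 CPM in Dek-overexpressing wells, against 67.4, 72.1 and 71.8 CPM in empty vector wells, a log2FC of −0.02 (−0.15 to 0.11). Spred1 was at 0.05 (−0.12 to 0.22), with overexpressing wells spread over 66.5, 59.6 and 76.7 CPM, against 66.0, 66.3 and 64.3 CPM in empty vector wells. These intervals hold no change of the size that Dusp14 showed in silencing.

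Whether the responses to silencing and to overexpression differed was tested in 1 fit of all 12 libraries. Dusp14 responded more positively to silencing (difference of log2FC 1.07, SE 0.10, edgeR adjusted p = 1.6e-07) and Spred1 more negatively (−0.30, SE 0.11, adjusted p = 0.042), beside 20.4% of all genes on the positive and 22.7% on the negative side. For Dusp6 the difference was −0.21 (SE 0.11, adjusted p = 0.13) and for Spry4 0.47 (SE 0.24, adjusted p = 0.13), neither past the threshold. Spred1 passed no longer with library size alone (adjusted p = 0.14), DESeq2 (0.052) or a minimum of 5 CPM (0.065), nor when silencing replicate 1 or 2, scrambled replicate 2 or 3, overexpression replicate 1 or 3, or any empty vector library was left out (adjusted p from 0.057 to 0.12). Spry4 passed without silencing replicate 2 (0.66, adjusted p = 0.0037) or scrambled replicate 1 (0.62, adjusted p = 0.036), and Dusp6 without silencing replicate 1 (−0.28, adjusted p = 0.036). In each case the well left out was the highest or lowest of its group for that gene, so the group mean moved by construction.

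Within the hairpin groups the genes varied from well to well largely in step. Relative to the mean of their group, 9 of the 10 genes were above in silenced well 3 and in scrambled well 1, and 9 of the 10 were below in silenced well 2 and in scrambled well 3. In silenced well 2 the median deviation of the 10 was −0.20 on the log2 scale, beside −0.0043 for 11019 genes with a mean of at least 5 CPM, and in scrambled well 1 it was 0.16, beside 0.0016. The exceptions were Dusp14, the 1 gene above the mean in silenced well 2 (0.02) and below it in silenced well 3 (−0.05), and Spred1, the 1 gene below the mean in scrambled well 1 (−0.11) and above it in scrambled well 3 (0.01). The targets of neuronal activity did not share 1 pattern over these wells. Bdnf was at 77.0, 48.4 and 88.2 CPM in silenced wells and 144, 83.8 and 83.0 CPM in scrambled wells, and Fos was at 58.6, 30.6 and 45.6 CPM in silenced wells and 106, 75.1 and 82.0 CPM in scrambled wells. For both, silenced well 2 was the lowest of its group and scrambled well 1 the highest. The same held for Fosb (deviations of −0.55 in silenced well 2 and 0.73 in scrambled well 1) and for Etv5, an ERK target (−0.19 and 0.08). Egr1, Egr3 and Junb went the other way, with deviations of 0.25, 0.17 and 0.15 in silenced well 2 and −0.09, −0.0010 and −0.07 in scrambled well 1, and Ier2 was at −0.02 and −0.12. In the cDNA arm the medians lay between −0.06 and 0.07, and in empty vector well 2 all 10 genes were above the group mean, with a median of 0.05.

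**Figure D3:**
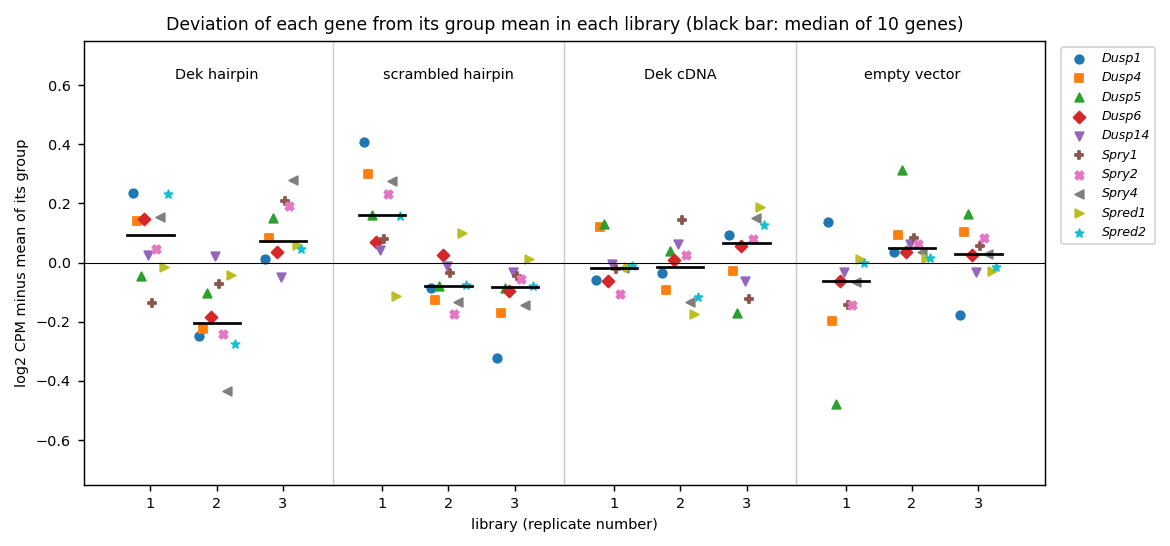
Deviation of each of the 10 genes from the mean of its group (log2 CPM) in each of the 12 libraries, with black bars for the median of the 10. Silenced well 2 (median −0.20) and scrambled well 1 (median 0.16) stand furthest from zero.

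The classical phosphatases outside the set mostly rose in silencing. Of 6 other MAP kinase phosphatase genes 5 were tested, and 4 were higher and 1 lower than in the scrambled control (26.2% and 28.5% of all genes), with a median log2FC of 0.57. Dusp16 (1.23, SE 0.11) and Dusp10 (0.57, SE 0.10), whose products act mainly on JNK and p38, rose, as did Dusp8 (0.49, SE 0.05), also a JNK and p38 phosphatase, and Dusp2 (1.15, SE 0.20), a nuclear phosphatase of ERK and p38 (edgeR adjusted p from 2.6e-06 to 4.7e-04). Dusp7, the closest relative of Dusp6 in the cytoplasm, fell by 0.37 (SE 0.07, adjusted p = 0.0010). Dusp16 was at 15.8, 16.6 and 16.2 CPM in Dek-silenced wells, against 7.38, 6.97 and 6.22 CPM in scrambled wells, without overlap. Of 10 atypical phosphatase genes tested besides Dusp14, 4 were higher, among them Dusp28 (0.80, SE 0.12), and 3 lower, among them Dusp3, which encodes a small ERK and JNK phosphatase and fell by 1.00 (SE 0.06, adjusted p = 8.2e-08). Dusp3 was at 68.9, 62.1 and 68.6 CPM in Dek-silenced wells, against 136, 131 and 128 CPM in scrambled wells, a fall of nearly the same size on the log2 scale as the rise of Dusp14.

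Of 7 other ERK pathway inhibitors tested, 1 was higher and 3 lower, with a median of −0.30. These counts stand beside 26.2% of all genes higher and 28.5% lower and are a description only. Errfi1, a feedback inhibitor of the EGF receptor, rose (0.59, SE 0.13, edgeR adjusted p = 0.0043), while Ptpn5, the striatal-enriched phosphatase of ERK (−0.50, SE 0.07), the receptor-type phosphatase gene Ptprr (−0.42, SE 0.09) and Spred3 (−0.30, SE 0.10, adjusted p = 0.027) fell. Of the SPRED genes, Spred1 and Spred3 were thus lower in Dek-silenced wells, while Spred2 was at −0.0045.

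Upstream of the members, 26 genes of the cascade itself were tested, of which 7 were higher and 9 lower, with a median of 0.0019. These counts, and those of the lists that follow, stand beside 26.2% of all genes higher and 28.5% lower, and they are given as a description. Mapk3, which encodes ERK1, was at 0.13 (SE 0.05, edgeR adjusted p = 0.052) and did not pass. Braf (−0.75, SE 0.08), Shoc2, a scaffold for RAF activation (−0.69, SE 0.07), and Map2k1, which encodes MEK1 (−0.58, SE 0.05), fell. The adaptor gene Gab1 (0.71, SE 0.12) and Ptpn11, which encodes the phosphatase SHP2 (0.62, SE 0.05), rose. Among 12 RAS regulators 3 were higher and 5 lower, among them the exchange factor gene Rasgrf2 (−1.71, SE 0.11), which was at 16.3, 20.1 and 16.8 CPM in Dek-silenced wells and 50.3, 63.7 and 58.0 CPM in scrambled wells, and Rasgrp1 (0.86, SE 0.18), which rose. Of 13 receptor tyrosine kinase genes 4 were higher, such as Fgfr1 (0.70, SE 0.08), and 3 lower, such as Egfr (−0.59, SE 0.12), and of 12 ligand genes 1 was higher, Nrg1 (0.90, SE 0.20), and 4 were lower.

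Downstream, 17 ERK target genes were tested, of which 1 was higher and 6 lower, beside 26.2% and 28.5% of all genes, with a median of −0.33. Egr1 (−1.86, SE 0.12), Egr2 (−1.81, SE 0.24), Ccnd1 (−1.57, SE 0.18) and Myc (−0.84, SE 0.12) fell, and Epha4 rose (0.21, SE 0.08, edgeR adjusted p = 0.044). Egr1 was at 13.0, 19.02 and 16.4 CPM in Dek-silenced wells, against 54.3, 60.5 and 59.5 CPM in scrambled wells. All silenced wells lay far below all scrambled wells, whereas those of Dusp6 overlapped. Etv5, an ETS factor often read together with Dusp6 and Spry4, was at 0.21 (SE 0.08, adjusted p = 0.059). Of 15 effector kinases and transcription factors 2 were higher and 7 lower, with a median of −0.25. In overexpression 0 genes of these 9 lists passed edgeR. At an unadjusted p below 0.05 the ERK targets had 2 higher and 4 lower, beside 2.92% of all genes higher and 3.68% lower. The receptor tyrosine kinases and the cascade each had 2 higher and 1 lower. The RAS regulators and the list of effector kinases and transcription factors each had 1 higher and 1 lower. The other inhibitors had 0 higher and 1 lower, and the ligands and both lists of other phosphatases had 0 and 0.

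**Figure D4:**
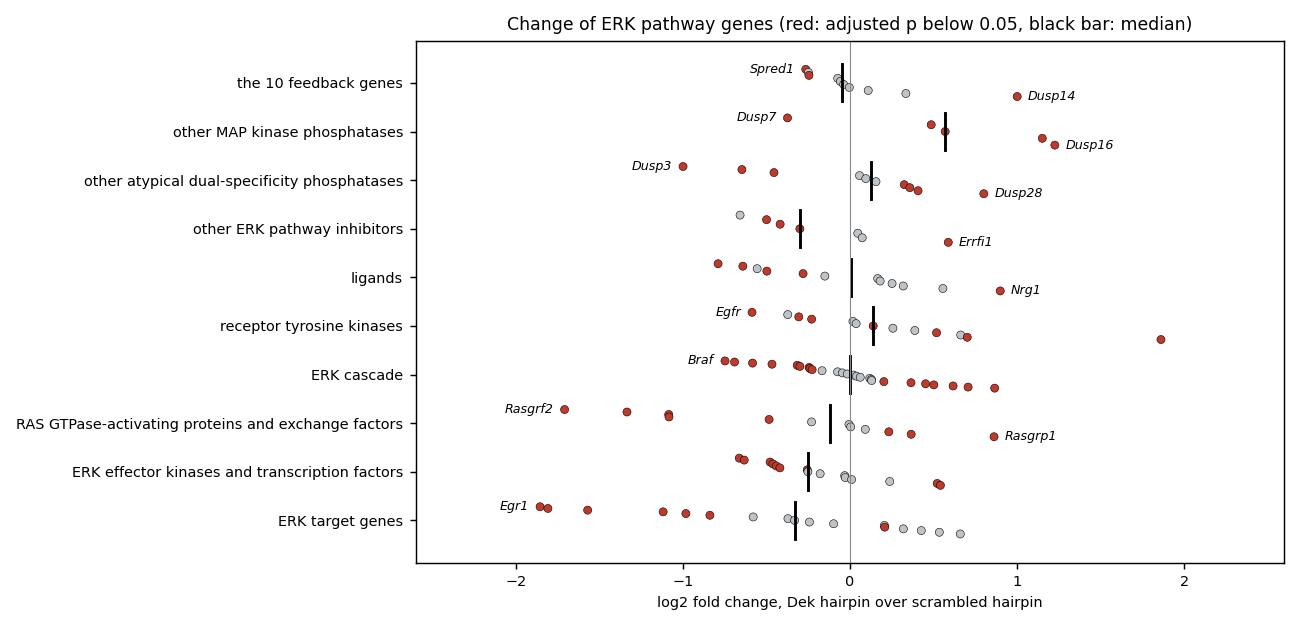
Log2 fold change in Dek-silenced over scrambled cultures for each tested gene of 10 lists of the ERK pathway, in red where the edgeR adjusted p was below 0.05 and in grey elsewhere, with black bars for the median of each list. The 10 feedback genes centre at −0.05 with Dusp14 alone at 1.00, the other MAP kinase phosphatases centre at 0.57 and the ERK target genes at −0.33.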

How the data were processed

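The authors deposited a table of estimated counts per gene, not normalized, of which 38.6% were not whole numbers. The submitters' processing notes name Salmon, DESeq2 and mm10, without versions, and the study's methods name fastp and STAR before RPKM and DESeq2. Whether counting used strand is not given in the sources used here, which leaves Dusp1, Dusp5 and Spry1 uncertain, since their exons overlap those of Ergic1 (11 bases) and of 2 genes on the other strand (547 and 710 bases).

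Here the estimated counts of all 12 columns were rounded, genes were kept by filterByExpr, TMM set the library scale, and edgeR 4.0.16 (R 4.3.3) tested each gene with robust quasi-likelihood F statistics, 2 groups at a time, or in a fit of all 12 libraries for the difference of responses. P-values were adjusted by Benjamini-Hochberg over all genes tested, with a threshold of 0.05. CPM came from 1 TMM scaling of the 12 libraries, and deviations were taken on log2(CPM + 0.5). Alternatives were size factors and the Wald test of DESeq2 1.42.0, library size alone, no filter, at least 5 CPM in 3 libraries, 1 fit of all 12 libraries, the replicate number as a block, and each library left out. In silencing, same-numbered wells deviated together over all genes (r = 0.47, 0.33 and 0.16), so the numbers were taken to pair them, a hint from the data and not from the labels. Silenced well 2 deviated as closely with scrambled well 3 (r = 0.33) as with its own number. Wells of different numbers in different arms reached similar values, such as scrambled well 1 with empty vector well 3 (r = 0.37). A value of this size therefore does not establish a pairing. The tests were tested on simulated data.

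The 10 genes and all lists were chosen with earlier results of these data known. Named besides the 10 genes and Dek were list genes with an adjusted p below 0.05 or a mean of at least 5 CPM, up to 4 per list and direction with the smallest adjusted p, or any gene of a list of at most 20 genes. Values of a few list genes are left out here. Gene models came from GENCODE vM21 on GRCm38 and promoters from RefSeq, which matched 8 of the 10 genes.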

Additional observations from a re-analysis of the deposited data

Results flagged for a closer look

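Among the 10 genes, 2 differed in their responses to Dek silencing and Dek overexpression by the test of the difference itself (edgeR, all 12 libraries). Over all genes tested 20.4% differed on the positive and 22.7% on the negative side, so the count of members did not stand above the background. For Dusp14 the log2FC was 1.00 in silencing and −0.06 in overexpression, a difference of 1.07 (adjusted p = 1.6e-07). For Spred1 it was −0.27 in silencing and 0.05 in overexpression, a difference of −0.30 (adjusted p = 0.042), which passed no longer with library size alone, DESeq2 or a minimum of 5 CPM, or in 9 of the 12 fits that left out a library (adjusted p from 0.057 to 0.12). The controls of both arms differ for each gene, at a log2FC of 0.30 for Dusp14 and −0.23 for Spred1 in scrambled over empty vector wells.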

How the results depend on the processing

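Of the 10 genes, Dusp14 kept its call and direction in silencing against either control, between the controls and in the difference of responses under all alternatives. In silencing against scrambled the count lower, 2, was 0 with library size alone and 1 with DESeq2 or a minimum of 5 CPM, and 0 to 2 when a library was left out. The count higher, 1, was 2 with the replicate block and 1 to 2 when a library was left out. Between scrambled and empty vector the count higher, 2, was 1 with DESeq2, with all 12 libraries in 1 fit, with the replicate block and with each library left out, and the count lower, 2, was 3 with DESeq2 size factors, library size alone, no filter or a minimum of 5 CPM (Spred2 added) and with the replicate block, and 2 to 6 on leaving out a library. In silencing against the empty vector the count higher, 1, was 2 with library size alone and 1 to 2 on leaving out a library, and the count lower, 3, was 2 to 5. In the difference of responses the count higher, 1, was 2 with the replicate block and 1 to 2 on leaving out a library, and the count lower, 1, was 0 with library size alone, DESeq2 or a minimum of 5 CPM, and 0 to 1 on leaving out a library. The block gave Spry4 in silencing and in the difference of responses (0.46, adjusted p = 0.027), and between the controls, whose numbers do not pair (r from −0.43 to −0.08), it gave Dusp1 (−0.31) and lost Spry1 (0.26). Signs that turned belonged to genes not called. With library size alone Dusp4 (0.040), Spry1 (0.060), Spry2 (0.024) and Spred2 (0.094) in silencing, and Dusp5 (0.073) in the difference of responses, lay above zero. Spred2 in silencing was also at 0.0066 with DESeq2 size factors, 0.0019 with DESeq2, 0.025 with a minimum of 5 CPM and 0.0099 with all 12 libraries. On leaving out a library, the log2FC in silencing ranged from −0.045 to 0.34 for Dusp1, −0.15 to 0.10 for Dusp4, −0.16 to 0.032 for Spry1, −0.18 to 0.047 for Spry2 and −0.12 to 0.12 for Spred2. In overexpression it ranged from −0.12 to 0.029 for Dusp1, −0.056 to 0.0074 for Dusp6 and −0.050 to 0.13 for Spred1. In silencing against the empty vector it ranged from −0.039 to 0.18 for Spry2. In the difference of responses it ranged from −0.21 to 0.23 for Dusp5, −0.013 to 0.17 for Spry1 and −0.0047 to 0.24 for Spred2. The causes were not tested. With 3 wells a group and 26 to 50 counts for Dusp5, small changes were beyond reach.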

Other observations

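In scrambled wells relative to empty vector wells, in which 21.3% of all genes tested were higher and 21.8% lower, 0 of 17 ERK target genes tested were higher and 5 lower by edgeR (0 and 8 at an unadjusted p below 0.05), with a median log2FC of −0.39, beside 0.0100 for all genes. Fos was at 106, 75.1 and 82.0 CPM in scrambled wells, against 157, 155 and 145 CPM in empty vector wells (log2FC −0.80, SE 0.13, edgeR adjusted p = 0.0026, n = 3 per group), whereas Egr1 was at −0.38 (SE 0.19, adjusted p = 0.17). Of 12 RAS regulators 1 was higher and 8 lower, among them Rasgrf2 (−0.50, SE 0.08, adjusted p = 0.00075), and of 12 ligand genes 6 were higher and 3 lower.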
